A study of Mus musculus with 42 samples.

Results

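The livers of mice fed a high-fat diet (HFD) were compared at Zeitgeber time (ZT) 16 and ZT 4, which lie 12 h apart in a cycle of 12 h of light and 12 h of darkness. ZT 4 falls in the light phase and ZT 16 in the dark phase. The 6 libraries were taken by their diet and time labels from the 42 libraries of the series, in which 2 diets, AIN93G and HFD, were each sampled at 7 time points. Both groups were female C57BL/6 mice (C57BL/6NHsd by the study's methods) that received the HFD, with 45% of energy from fat, for 3 weeks from 3 weeks of age. They were thus 6 weeks old at collection. Each time point held 3 mice. Poly(A) RNA was sequenced and deposited as read counts per gene. With 3 mice per group, p-values measure the spread between these mice. In whole liver, fewer cells of a type and less RNA per cell cannot be told apart.

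The liver clock is a feedback loop in which CLOCK and ARNTL (BMAL1) bind E-box DNA and drive the genes of their own repressors, the PER and CRY proteins. In a linked loop, the nuclear receptors REV-ERB (Nr1d1, Nr1d2) and ROR (such as Rora) compete for ROR elements, where REV-ERB represses Arntl. Output factors such as DBP, TEF, and HLF bind D-box DNA, which NFIL3 represses. The timing of food intake is also known to set the daily rhythm of liver metabolism, and a high-fat diet is known to move part of the intake of mice into the light phase. Food intake was not analysed here.

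Total counts were 14592481 to 19815356 per library, and Alb, the albumin gene of hepatocytes, was at 66434 to 86219 CPM (counts scaled to a common library size) in all 6. The deposited AIN93G libraries of ZT 16 held Alb at 18.7 to 58.2 CPM, so no comparison between the diets was made. The log2 values correlated at r = 0.9605 to 0.9751 within a time point and at 0.9494 to 0.9677 between them, across genes. Xist, the RNA of the inactive X chromosome, was at 1044, 113, and 0.624 CPM with TMM scaling, which is used from here on, in ZT 16 replicates 1 to 3, and at 949 to 1218 CPM at ZT 4. Xist in replicates 2 and 3 thus went against the female label, while the Y-linked genes had at most 1 count in each of the 6 libraries. ZT 16 replicate 1 stood apart in another way, with 65.4 CPM over the skeletal muscle genes against 2.90 to 8.86 CPM in the other 5 libraries. Values without these libraries are given for the main groups of genes.

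Of 12003 genes tested with the quasi-likelihood test of edgeR, 146 (1.22%) passed an adjusted p of 0.05 between ZT 16 and ZT 4. Of these, 71 (0.592%) were higher and 75 (0.625%) lower at ZT 16, and 1794 genes had an unadjusted p under 0.05. The change was over 2-fold in 50 of the higher and 48 of the lower genes, and over 4-fold in 18 and 10. The median size among the 146 genes was 1.16 on the log2 scale and the smallest was 0.62. In all 146 genes the CPM of the 2 time points did not overlap, which held for 20.7% of all genes tested. The count of genes called ranged from 33 without ZT 4 replicate 2 to 103 without ZT 16 replicate 1, and it was 34 without ZT 4 replicate 3, 38 without ZT 16 replicate 2, 64 without ZT 4 replicate 1, and 65 without ZT 16 replicate 3. Without both ZT 16 libraries low in Xist, which leaves 1 ZT 16 library, 143 of the 146 genes had a value with the same sign. Genes under the count filter in that fit had no value. The CPM of the 146 genes did not overlap, so leaving out libraries could hardly reverse a sign.

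The clock genes Nr1d1 and Cry1 were among those with the smallest adjusted p of all genes tested. Of 24 clock genes tested, 7 were higher and 2 lower at ZT 16, where 0.592% and 0.625% of all genes tested were. Their median log2 fold change was 1.00 against 0.01 over all genes tested. The 7 higher genes were Cry1, Per2, Bhlhe40, Usp2, Wee1, Nampt, and Tspan4, and the 2 lower genes were Nr1d1 and Dbp. Leaving out 1 library at a time gave 4 to 8 higher and 1 to 2 lower clock genes, and 6 higher and 2 lower were called without both libraries low in Xist.

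Nr1d1, the gene of REV-ERB alpha (chr11:98767932-98775333, minus strand, mm10), showed the largest decrease of all genes tested. It was at 4.09, 5.09, and 2.6 CPM at ZT 16 and at 61.5, 59.4, and 77.4 CPM at ZT 4 in the 3 replicates of each. Every ZT 4 library thus lay far above every ZT 16 library. The level was 17-fold lower at ZT 16 (log2 fold change -4.09, SE 0.24, adjusted p = 0.00016). Thra, a thyroid hormone receptor gene on the opposite strand, shares 1075 bases with Nr1d1. Thra was at 7.42 ± 0.723 CPM at ZT 16 and 15.1 ± 2.9 CPM at ZT 4 (SD, n = 3, adjusted p = 0.048), and reads of the shared bases cannot be told apart without strand. The paralog Nr1d2 was at 37.8, 87, and 34.8 CPM at ZT 16 and 77.2, 89.1, and 97.6 CPM at ZT 4. One ZT 16 library reached the ZT 4 range, and the adjusted p was 0.32. Without that library, ZT 16 replicate 2, the log2 fold change of Nr1d2 was -1.28 (adjusted p = 0.028) against -0.73.

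Of the repressors of the first loop, Cry1, Per2, and Bhlhe40 rose at ZT 16. Cry1 (chr10:85131700-85185064, minus strand) was at 55.7, 59, and 58.1 CPM at ZT 16 and 13.9, 14.3, and 14.8 CPM at ZT 4. It was 4.02-fold higher at ZT 16 (log2 fold change 2.01, SE 0.12, adjusted p = 0.00016). Per2 (chr1:91415982-91459324, minus strand) was at 119, 121, and 124 CPM against 28.5, 12.6, and 22.6 CPM, and was 5.69-fold higher at ZT 16 (SE 0.26 on the log2 scale, adjusted p = 0.0059). Bhlhe40, which encodes the E-box repressor DEC1, was at 196, 165, and 189 CPM against 99.7, 54.4, and 80.4 CPM, 2.35-fold higher (adjusted p = 0.034). The groups of these 3 genes did not overlap. The remaining repressors did not pass the threshold. The values of Per1, Per3, Cry2, and Ciart did not overlap between the time points, which held for 20.7% of all genes tested. Per1 was at 55.2, 40.9, and 33.8 CPM against 23, 20.6, and 13.6 CPM, just outside the threshold (adjusted p = 0.051). Per3, at 55.8, 73.2, and 30.8 CPM against 26.6, 8.69, and 17 CPM, had an adjusted p of 0.10, and Ciart, a repressor of CLOCK and ARNTL, was low at 3.37, 4.6, and 2.76 CPM against 1.92, 0.444, and 0.948 CPM (0.15). Cry2 was at 50.4, 51.9, and 52.3 CPM at ZT 16 and 37.1, 34.1, and 34.9 CPM at ZT 4 (0.067). Bhlhe41 had too few counts to be tested.

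**Figure D1:**
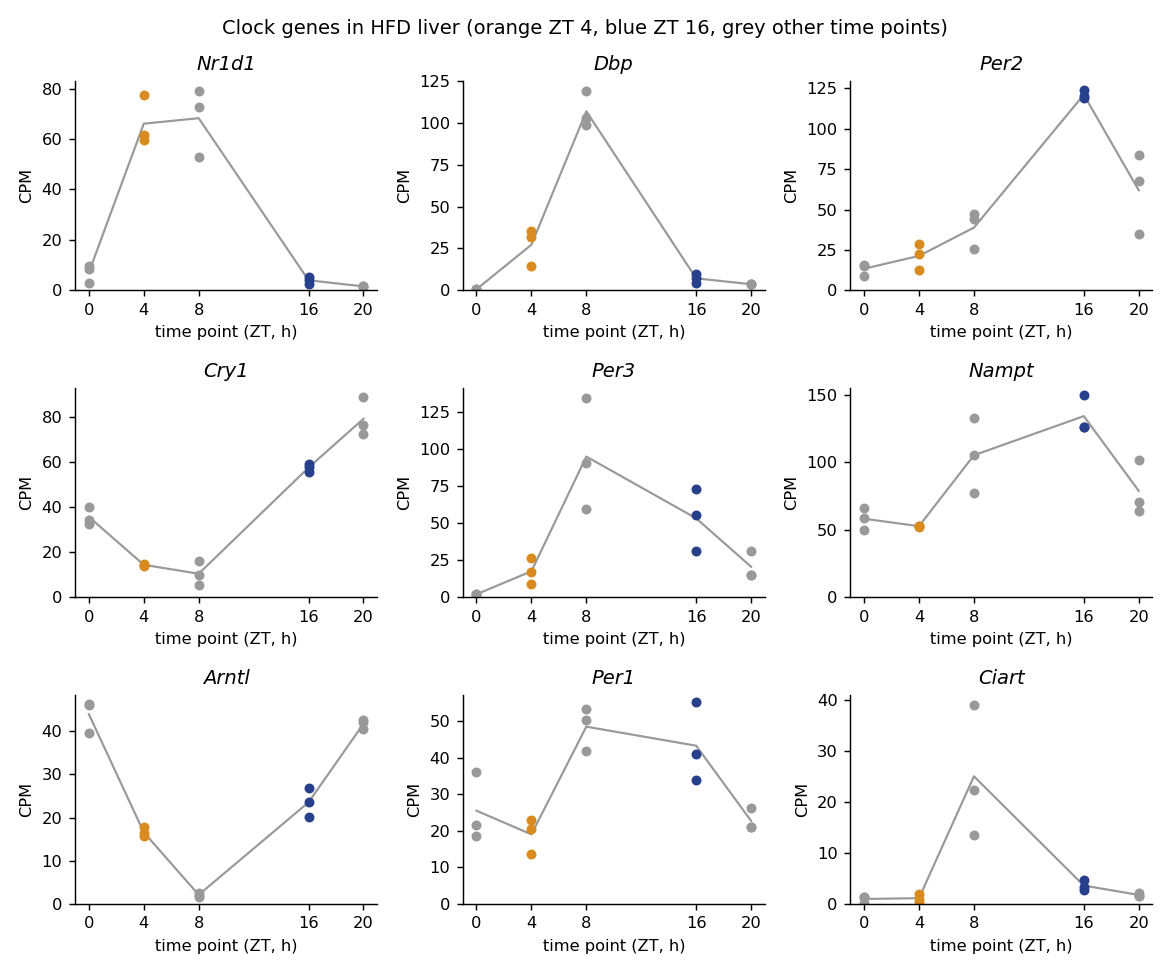
Levels of 9 clock genes in CPM (vertical axes, linear, from 0) against time point in hours of ZT (horizontal axes), with 1 point per HFD library and a line through the means of 3. At ZT 16 (blue) Nr1d1 lies at 2.60 to 5.09 CPM against 59.4 to 77.4 CPM at ZT 4 (orange), Cry1, Per2, and Nampt lie higher at ZT 16, and Arntl has its lowest values at ZT 8.

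Of the 3 activators tested, 0 were called by edgeR, 1 had an unadjusted p under 0.05, and 0 were called by DESeq2. Arntl was at 20.2, 23.5, and 26.8 CPM against 15.7, 17.7, and 16.4 CPM, slightly higher in each ZT 16 library, without passing the threshold (log2 fold change 0.51, adjusted p = 0.16). Clock (-0.04, adjusted p = 0.95) and Rora (-0.04, 0.93) overlapped between the time points. Npas2, a CLOCK paralog, had too few counts for the test, with 0.608, 0, and 0.312 CPM at ZT 16 and 2.03, 2.41, and 1.6 CPM at ZT 4.

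Of the 12 output genes, 4 were higher and 1 lower at ZT 16, where 0.592% and 0.625% of all genes tested were. Nampt, the rate-limiting enzyme of NAD salvage, was at 126, 150.4, and 127 CPM against 53.1, 51.8, and 53 CPM, 2.55-fold higher (SE 0.13 on the log2 scale, adjusted p = 0.0043). Tspan4, a tetraspanin gene, was at 95.1, 88.9, and 103 CPM against 28.6, 22.8, and 27.9 CPM, 3.62-fold higher (adjusted p = 0.00073). Both were separated between the time points by wide gaps. Usp2, the gene of a deubiquitinating enzyme (chr9:44067021-44095627, plus strand), was at 29.9, 45.5, and 26 CPM against 8.58, 3.04, and 2.49 CPM (7.12-fold, adjusted p = 0.021). Wee1, a kinase gene that holds back mitosis (chr7:110122046-110143286, plus strand), was at 22.6, 19.2, and 13.3 CPM against 4.29, 1.84, and 3.79 CPM (5.51-fold, adjusted p = 0.014). Dbp fell, from 31.7, 14.7, and 35.1 CPM at ZT 4 to 7.35, 9.83, and 4.05 CPM at ZT 16 (3.87-fold lower, adjusted p = 0.047), with 1 ZT 4 library near the ZT 16 range. Dbp shares 737 bases with Sphk2, a sphingosine kinase gene on the opposite strand, which was at a mean of 40.4 CPM at ZT 16 and 73.3 CPM at ZT 4. Of the 7 not called, Alas1, the first enzyme of heme synthesis, was at 461, 656, and 654 CPM against 364, 150.4, and 154 CPM (adjusted p = 0.095, and 0.016 without ZT 4 replicate 1). Nfil3 was at 45, 47.8, and 41.6 CPM against 20.2, 31, and 34.2 CPM (0.15), and Tef at 149.5, 234, and 159 CPM against 137, 90.1, and 121 CPM (0.21). Noct, Por, Hlf, and Leo1 had adjusted p of 0.22, 0.23, 0.54, and 0.80.

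The calls of Nr1d1, Cry1, Per2, Nampt, and Tspan4 held in each of the 6 fits without 1 library. When 1 library was left out, the call was lost for Usp2 without ZT 16 replicate 2 (adjusted p = 0.063), ZT 4 replicate 2 (adjusted p = 0.095) or ZT 4 replicate 3 (adjusted p = 0.071), for Wee1 without ZT 16 replicate 2 (adjusted p = 0.060), for Bhlhe40 in each fit but the one without ZT 4 replicate 1 (adjusted p = 0.057 to 0.13), and for Dbp in each fit but the one without ZT 4 replicate 2 (adjusted p = 0.071 to 0.16). The log2 fold change of Usp2 was 3.61 without ZT 4 replicate 1. Without both ZT 16 libraries low in Xist, the calls of the following genes were lost, with adjusted p in parentheses: Usp2 (0.069), Bhlhe40 (0.090), Dbp (0.14), and Thra (0.27). In that fit Per1 (0.043) and Nr1d2 (0.047) were called.

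Promoter sequence is shown for 4 of the 10 clock genes whose windows hold a motif of known clock regulators, the core clock gene Arntl and 3 of the repressors (Cry1, Ciart, and Per3). Windows of 250 bases before to 50 bases after an annotated start were taken from RefSeq (GRCm38.p6, the patch release of mm10). Of the 26 clock genes, 23 had at least 1 window, 30 in all. The E-box CACGTG was found for 6 of these genes (Cry1, Ciart, Per1, Tef, Tspan4, and Bhlhe41), the ROR element TAGGTCA for 3 (Arntl, Nfil3, and Leo1), and the D-box TTATGTAA or TTACGTAA for 1 (Per3). Both strands were searched. Of all 32851 windows of the same length, 7.15% held the E-box, 2.61% the ROR element, and 1.06% the D-box. Capitals mark the motif in the sequences, which are written from 5′ to 3′ on the strand of the gene. Cry1 (chr10:85185055-85185304, minus strand) holds 1 E-box, Ciart (chr3:95882229-95882478, minus strand) 3 E-boxes, and Per3 (chr4:151044666-151044915, minus strand) 2 D-boxes. In Arntl (chr7:113207529-113207558, plus strand) the ROR element lies within the transcribed bases, and 30 bases around it are given.
Cry1: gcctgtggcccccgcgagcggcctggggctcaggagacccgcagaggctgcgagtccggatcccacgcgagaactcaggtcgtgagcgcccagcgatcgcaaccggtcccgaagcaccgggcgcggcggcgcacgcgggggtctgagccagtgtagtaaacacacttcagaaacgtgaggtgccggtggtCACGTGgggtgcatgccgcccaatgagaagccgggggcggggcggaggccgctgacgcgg
Ciart: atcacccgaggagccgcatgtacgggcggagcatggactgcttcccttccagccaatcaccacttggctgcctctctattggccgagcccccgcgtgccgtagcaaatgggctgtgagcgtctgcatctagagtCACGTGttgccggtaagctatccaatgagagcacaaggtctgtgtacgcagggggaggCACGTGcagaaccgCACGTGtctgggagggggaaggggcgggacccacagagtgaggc
Per3: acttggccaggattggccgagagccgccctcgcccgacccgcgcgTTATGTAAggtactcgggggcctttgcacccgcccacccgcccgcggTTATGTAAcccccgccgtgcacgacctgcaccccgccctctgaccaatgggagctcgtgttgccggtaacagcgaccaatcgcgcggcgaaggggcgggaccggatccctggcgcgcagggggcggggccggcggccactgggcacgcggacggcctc
Arntl: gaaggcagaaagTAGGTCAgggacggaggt
A match is a description of the letters in the window and not a bound site. No motif of the 3 was found in the windows of Nr1d1 and Dbp, which says only that these letters are not in these windows.

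The clock was then read against a second pair of HFD time points 12 h apart, ZT 20 (dark) and ZT 8 (light), which shares no library with the first. In that pair 335 of 12013 genes (2.79%) were called, 191 higher (1.59%) and 144 lower (1.2%) at ZT 20. Of the genes called, 27 were common to both pairs, which is 18.5% of the 146 and 8.06% of the 335, with the same sign in 24 and the opposite sign in 3. The difference between the 2 pairs was tested as (ZT 16 minus ZT 4) minus (ZT 20 minus ZT 8) over the 12 libraries, and 86 of 12016 genes (0.716%) were called, 33 (0.275%) with a difference above 0 and 53 (0.441%) with one below 0. The clock lists held 13 of them among 24 members tested, leaving out Npas2, which passed the count filter through ZT 20 alone. Of the 3 genes with opposite signs, Wee1 and Cyp2a5 were higher at ZT 16 and lower at ZT 20, and Loxl4 the reverse.

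In the second pair 5 clock genes were higher and 9 lower of 25 tested without Npas2, against 1.59% and 1.2% of all genes. In the first pair 7 were higher and 2 lower of 24, against 0.592% and 0.625%. Of the 9, Nr1d1 and Bhlhe41 averaged 24 and 4.33 counts at ZT 20, under the count filter, and passed it through ZT 8 alone. They entered the test in the way for which Npas2 was left out, so the count of 9 should be read without them. Arntl, with 42.2, 42.6, and 40.5 CPM at ZT 20 and 2.52, 2.14, and 1.57 CPM at ZT 8, had the smallest p of all genes for the difference. Its log2 fold change was 4.34 in the second pair and 0.51 in the first, a difference of -3.82 (SE 0.24, adjusted p = 3.6e-06). Npas2 was at 9.9, 12.2, and 12.8 CPM at ZT 20 and at most 1 count in each ZT 8 library, at least 66.1-fold higher at ZT 20 against a floor of 3 counts per library. It entered the test through its ZT 20 level, so no p is given for it.

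Several clock genes had a positive log2 fold change in the first pair and a negative one in the second. Wee1 was -1.46 on the log2 scale in the second pair (adjusted p = 0.042) and 2.46 in the first, a difference of 3.93 (SE 0.51, adjusted p = 0.0023). Usp2, Per1, Per3, Ciart, Tef, Nampt, and Bhlhe40 also had positive differences between the pairs, of 1.57 to 5.49. For Per1, Per3, Ciart, and Tef the decrease at ZT 20 was itself called, with log2 fold changes of -1.08, -2.20, -3.82, and -1.44. Ciart was at 39.1, 13.6, and 22.4 CPM at ZT 8 and 2.19, 1.57, and 1.47 CPM at ZT 20, so its high values in these libraries fell at ZT 8. Tspan4 and Leo1 had differences of 1.31 and -1.16, with log2 fold changes above 0 in both pairs. Dbp and Nr1d2 had negative log2 fold changes in both pairs, of larger size in the second (-4.89 and -3.70), and differences of 2.95 and 2.98. In the 12 fits without 1 library, the call of the difference was lost in 10 for Tspan4 (adjusted p = 0.052 to 0.096, all but those without ZT 4 replicate 1 and ZT 8 replicate 2), in 6 for Leo1 (0.052 to 0.058, without any ZT 20 library, ZT 16 replicate 2, ZT 8 replicate 1 or ZT 4 replicate 2), and in 1 for Bhlhe40 (0.059, without ZT 20 replicate 3).

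Nr1d1, Cry1, and Per2 had differences between the pairs that did not pass the threshold. Nr1d1 was -5.49 on the log2 scale in the second pair against -4.09 in the first (difference 1.41, SE 0.35, adjusted p = 0.094). For Cry1 the values were 2.95 and 2.01 (difference -0.94, SE 0.36, adjusted p = 0.40). Per2 had 0.69 and 2.51 (1.83, 0.46, 0.099).

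**Figure D2:**
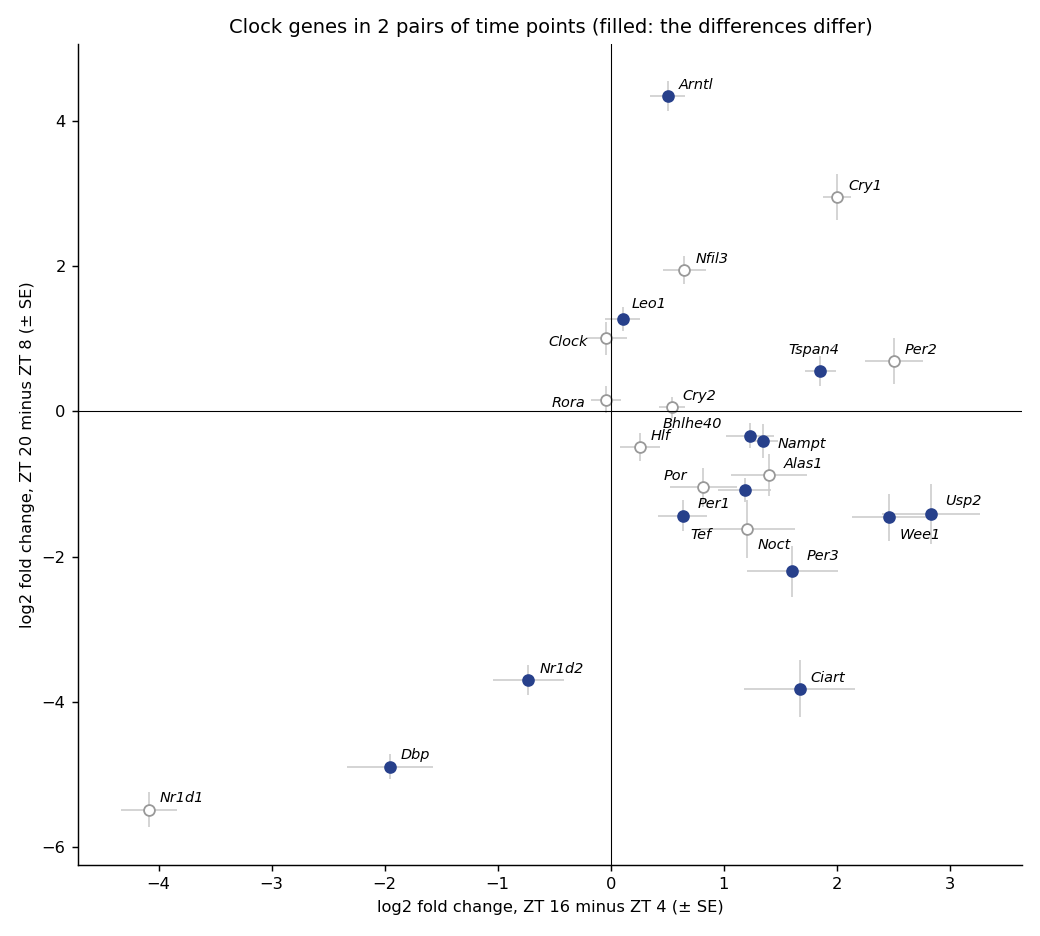
The log2 fold change of each clock gene tested in both pairs, ZT 16 minus ZT 4 (horizontal axis) against ZT 20 minus ZT 8 (vertical axis), with bars of 1 SE. Filled points are genes whose difference between the pairs was called, such as Arntl (0.51 and 4.34) and Ciart (1.67 and -3.82), while Nr1d1 lies low on both axes.

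Of the 5 genes with the smallest p for the difference between the pairs, 3 lay outside the clock lists. Loxl4, a lysyl oxidase-like gene of the matrix, was at 3.65, 3.32, and 2.7 CPM at ZT 16 and 10.1, 14.8, and 6.22 CPM at ZT 4, lower in the dark (-1.69, adjusted p = 0.047). It was at 24.5, 25.8, and 35.9 CPM at ZT 20 and 1.45, 2.37, and 1.92 CPM at ZT 8, higher in the dark (3.91, 2.8e-05). The difference of -5.59 (SE 0.44) had an adjusted p of 2.8e-05. Clpx, the unfoldase subunit of a mitochondrial protease, was at 139, 172, and 218 CPM at ZT 16 and 224, 249, and 296 CPM at ZT 4, and at 386, 454, and 478 CPM at ZT 20 and 118, 123, and 90.2 CPM at ZT 8 (difference -2.54, adjusted p = 0.00038). Coq10b, a coenzyme Q binding protein gene, was at 31.4, 33.9, and 22.9 CPM at ZT 16 and 21.3, 14, and 16.5 CPM at ZT 4, and at 20.5, 16.9, and 14.1 CPM at ZT 20 and 65.2, 58.1, and 72.9 CPM at ZT 8 (difference 2.69, adjusted p = 0.00038). In the first pair Clpx had a log2 fold change of -0.54 (adjusted p = 0.22) and Coq10b of 0.76 (0.12), and in the second pair 2.01 (0.00031) and -1.92 (0.00047).

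The 12 genes of largest change in each direction were taken from the genes called. The higher genes outside the clock lists were Lingo4, Thrsp, Elovl6, Tsku, Col27a1, Aacs, Hcn3, and Lonrf3. Lingo4, a leucine-rich repeat protein gene, was at 9.9, 5.66, and 9.57 CPM at ZT 16 and 0.508, 1.21, and 0.178 CPM at ZT 4 (13.3-fold). It averaged 10.3 counts at ZT 4 and passed the filter of 25 counts through ZT 16 alone, so no p is given for it. Whether reads of a neighbouring gene were counted for Lingo4 was not tested. Tsku, a secreted leucine-rich protein gene, was at 60, 99.7, and 137 CPM against 22.8, 8.5, and 17.8 CPM (6.03-fold, adjusted p = 0.019).

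Hcn3, a channel gene of the hyperpolarization-activated family, was at 65, 40.4, and 37.8 CPM against 12.1, 9.52, and 7.47 CPM (4.92-fold, adjusted p = 0.0077) and was called in each fit without 1 library. It shares 711 bases on the opposite strand with Pklr, the liver pyruvate kinase gene, which was at 624, 325, and 406 CPM against 226, 156, and 129 CPM (adjusted p = 0.051), so part of the counts cannot be assigned to a strand. Aacs, which activates acetoacetate for lipid synthesis, was at 342, 201, and 164 CPM against 53.7, 57, and 25.2 CPM (5.19-fold, adjusted p = 0.019). Col27a1, a fibrillar collagen gene, was at 128, 42.1, and 63.7 CPM against 17.1, 12.2, and 11.9 CPM (5.67-fold, 0.019). In both, ZT 16 replicate 1 was the highest library, and no ZT 16 value reached the ZT 4 range. Lonrf3, a RING finger gene, was low at 8.9, 12.5, and 8.11 CPM against 2.03, 1.97, and 2.73 CPM (0.012). Adjusted p of the fits without 1 library are given in parentheses. The call of Lingo4 was lost without ZT 4 replicate 1. Tsku lost its call without ZT 16 replicate 2 (0.062), ZT 4 replicate 2 (0.052) or ZT 4 replicate 3 (0.077). Aacs lost it without ZT 16 replicate 2 (0.061), ZT 4 replicate 1 (0.066) or ZT 4 replicate 2 (0.067). Col27a1 lost it without ZT 4 replicate 1 (0.061), ZT 4 replicate 2 (0.096) or ZT 4 replicate 3 (0.088). Lonrf3 lost it without ZT 4 replicate 2 (0.054). The log2 fold change of Lingo4 was 4.57 without ZT 4 replicate 2 against 3.74. Without both ZT 16 libraries low in Xist, the calls of Tsku (log2 fold change 1.87 against 2.59, adjusted p = 0.086) and Lonrf3 (adjusted p = 0.067) were lost, and the log2 fold change was 3.22 for Col27a1 against 2.50. In the fit of all 15 HFD libraries Tsku was not called (adjusted p = 0.069).

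The lower genes outside the clock lists were Hectd2os, Acsm2, Rfx4, Ndrg1, Sort1, Syt1, Gbp10, Loxl4, Ddx60, and Sgk2. Sort1, which encodes the sorting receptor sortilin (chr3:108284082-108361511, plus strand), was at 7.19, 5.3, and 4.83 CPM at ZT 16 and 27.2, 25.8, and 21.8 CPM at ZT 4. This was 4.31-fold lower with no overlap (log2 fold change -2.11, SE 0.20, adjusted p = 0.0040). Ndrg1, a gene known for its response to hypoxia (chr15:66929318-66969640, minus strand), was at 5.53, 4.17, and 4.42 CPM against 17.4, 20.8, and 31.2 CPM (4.9-fold lower, adjusted p = 0.0077). Syt1, a synaptotagmin gene, was at 4.26, 4.45, and 3.53 CPM against 16.1, 15, and 12.4 CPM (3.55-fold lower, 0.0077). Rfx4, a transcription factor gene, was at 1.33, 1.63, and 1.61 CPM against 7.56, 8.88, and 6.34 CPM (4.98-fold lower, 0.0082). The calls of these 4 genes held in each fit without 1 library, while that of Ndrg1 was lost without both ZT 16 libraries low in Xist (adjusted p = 0.057), and in each of them the 3 ZT 16 libraries lay far below the ZT 4 libraries.

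Sgk2, a serine/threonine kinase gene related to Sgk1, was at 23.8, 20.4, and 22.1 CPM against 43.5, 80.7, and 75.2 CPM (3.0-fold lower, adjusted p = 0.017). Hectd2os, a noncoding RNA that shares 7084 bases with Hectd2 on the opposite strand, was at 6.36, 2.47, and 1.66 CPM against 28.4, 23.9, and 21.9 CPM (7.03-fold lower, 0.019). Hectd2 itself was at a mean of 2.97 CPM at ZT 16 and 2.53 CPM at ZT 4. Acsm2, a medium-chain acyl-CoA synthetase gene with near paralogs, was at 0.885, 0.636, and 1.4 CPM against 4.46, 7.68, and 2.96 CPM (5.06-fold lower). Acsm2 averaged 17.3 counts at ZT 16 and passed the count filter through ZT 4 alone, so no p is given for it. Its assignment among the paralogs is also uncertain. Gbp10, an interferon-induced GTPase gene also with near paralogs, was at 7.63, 11.7, and 4.89 CPM against 22, 35, and 26.3 CPM (0.032), and Ddx60, a helicase gene, at 7.63, 8.84, and 5.93 CPM against 16.4, 29.4, and 21.9 CPM (0.022). These 5 genes, and Loxl4 above, were separated between the time points but lost their calls without some libraries. Adjusted p of these fits are given in parentheses. Sgk2 lost its call without ZT 16 replicate 2 (0.062), ZT 4 replicate 2 (0.059) or ZT 4 replicate 3 (0.068). Hectd2os lost it without ZT 16 replicate 2 (0.063), ZT 4 replicate 1 (0.067) or ZT 4 replicate 2 (0.068). Acsm2 lost it in each of the 6 fits. Gbp10 lost it in each fit but the one without ZT 16 replicate 2 (0.056 to 0.12). Ddx60 lost it without ZT 16 replicate 2 (0.061) or 3 (0.059), or ZT 4 replicate 2 (0.073) or 3 (0.077). Loxl4 lost it in each fit but the one without ZT 4 replicate 3 (0.072 to 0.17). Without ZT 16 replicate 1, the log2 fold change of Hectd2os was -3.59 against -2.81, and without both libraries low in Xist it was -1.96. In the latter fit, which has 1 ZT 16 library, the calls of Acsm2, Loxl4, Ddx60, and Sgk2 were lost.

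**Figure D3:**
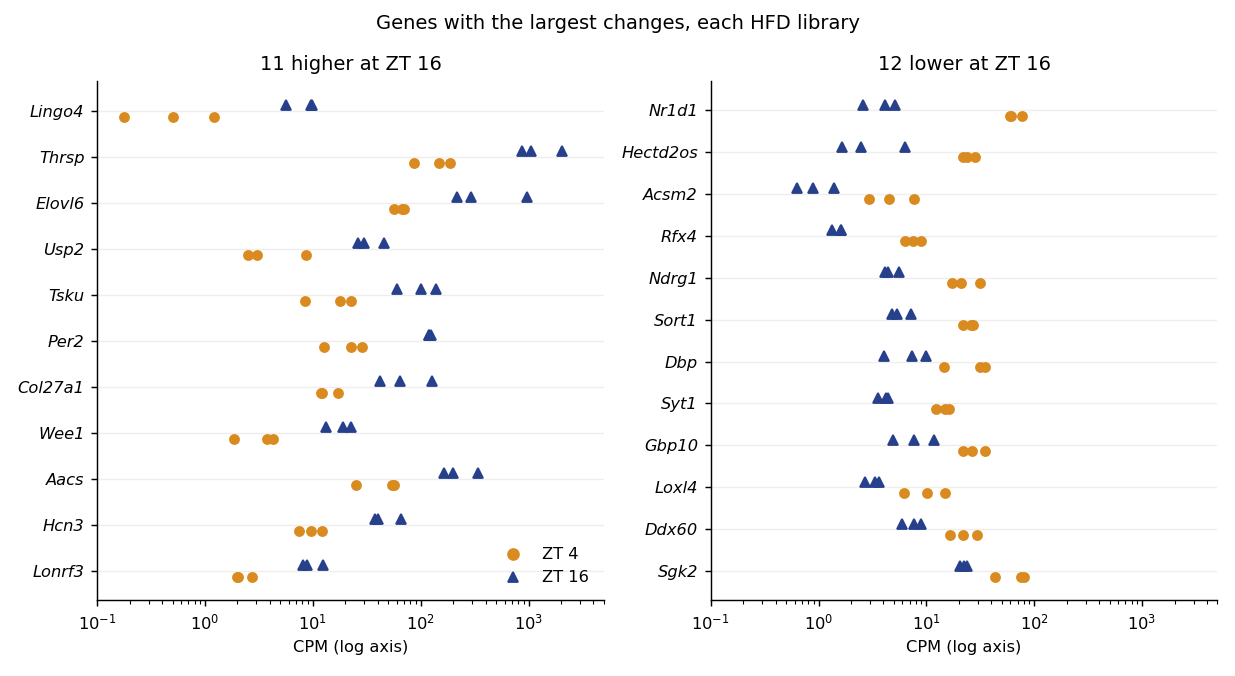
CPM on a log axis (horizontal) of 11 higher and 12 lower genes of largest change (vertical), with each of the 3 ZT 4 libraries as a circle and each of the 3 ZT 16 libraries as a triangle. No gene has overlapping groups, which was part of the rule by which the genes were chosen, and the levels run from 0.178 CPM (Lingo4 at ZT 4) to 2034 CPM (Thrsp at ZT 16).

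Genes of fatty acid and triacylglycerol synthesis mostly had higher values at ZT 16, and 3 passed the test. Of 22 lipogenic genes tested, 3 were called, all higher, where 0.592% of all genes were called higher, and 20 had a log2 fold change above 0, with a median of 0.91 against 0.01 over all genes. Thrsp, whose protein promotes fatty acid synthesis (chr7:97412938-97417730, minus strand), was at 2034, 877, and 1050.5 CPM at ZT 16 and 147, 186, and 85.8 CPM at ZT 4. It was 9.46-fold higher (log2 fold change 3.24, SE 0.38, adjusted p = 0.0086), with no overlap between the libraries. Acacb, the acetyl-CoA carboxylase whose product restrains mitochondrial fat oxidation, was at 407, 283, and 267 CPM against 90.9, 108, and 77.3 CPM (3.46-fold, SE 0.21 on the log2 scale, adjusted p = 0.0082). Elovl6, which elongates palmitate (chr3:129532355-129638495, plus strand), was at 971, 216, and 292 CPM against 56.4, 69.5, and 66.8 CPM (7.67-fold, SE 0.51, adjusted p = 0.034).

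In several other genes of the pathway ZT 16 replicate 1 stood far above the rest. Fasn, the fatty acid synthase gene, was at 3631, 819.9, and 812 CPM at ZT 16 and 504, 437, and 364 CPM at ZT 4 (adjusted p = 0.12). Scd1, the stearoyl-CoA desaturase gene, was at 10432, 2689, and 2592 CPM against 678, 1785, and 2283 CPM (0.21), and Acly, which makes cytosolic acetyl-CoA, at 1513, 373, and 303 CPM against 263, 304, and 161 CPM (0.22). In each of these 3 genes replicate 1 was the highest library, and the other ZT 16 libraries lay above all ZT 4 libraries, apart from replicate 3 for Acly, which fell inside the ZT 4 range. Pnpla3, a lipid droplet lipase gene, ranged most, with 129, 21, and 11.4 CPM against 2.48, 7.42, and 2.31 CPM (0.095). The transcription factor genes showed less difference, with 674, 411, and 393 CPM against 379, 396, and 293 CPM for Srebf1 (0.39) and 406, 565, and 498 CPM against 339, 398, and 385 CPM for Mlxipl, which encodes ChREBP (0.31). Dgat2, of the last step of triacylglycerol synthesis, was at 772, 716, and 579 CPM against 682, 665, and 629 CPM (0.89), and these overlapped.

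Without ZT 16 replicate 1, 4 lipogenic genes were called, the median of the list was 0.43, and Elovl6 had a log2 fold change of 1.98 (adjusted p = 0.0023). Without ZT 16 replicates 2 and 3, which leaves replicate 1 alone, 11 were called and the median was 1.49, with log2 fold changes of 3.87 for Thrsp and 3.92 for Elovl6. The call of Thrsp and that of Acacb held in each fit without 1 library, and the call was lost for Elovl6 without ZT 4 replicate 1 (adjusted p = 0.10), ZT 4 replicate 2 (adjusted p = 0.14) or ZT 4 replicate 3 (adjusted p = 0.13). The same library had the highest values of DNA replication genes, such as Mcm5 at 30.7, 2.9, and 4.42 CPM and Mcm6 at 46.1, 6.93, and 10.4 CPM, against 2.77, 3.81, and 1.84 CPM and 9.03, 8.63, and 6.64 CPM at ZT 4 (adjusted p = 0.24 and 0.32), and of the skeletal muscle genes. It also had the highest sum over the adipocyte list, at 2192, 1374, and 723 CPM at ZT 16 and 961 to 1333 CPM at ZT 4, of which Car3 made up 2155 CPM in replicate 1, while the defining marker Adipoq was at 0 to 0.381 CPM in the 6 libraries. The part of the replication, muscle, and adipocyte list genes in the result was not tested.

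**Figure D4:**
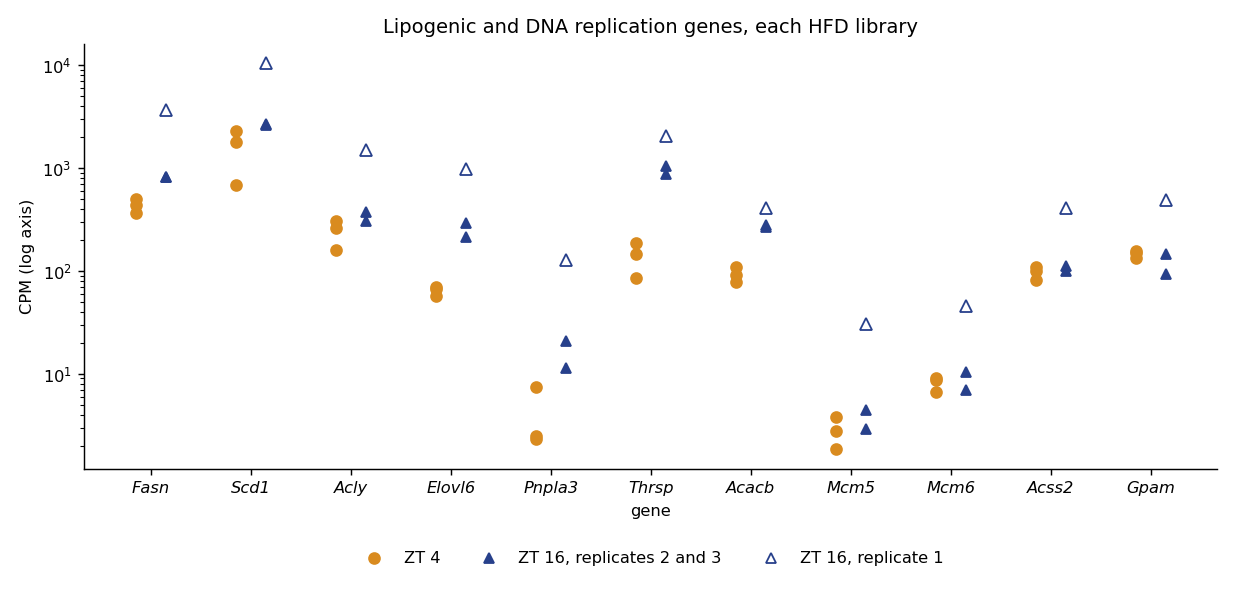
CPM on a log axis (vertical) of 9 lipogenic genes and the replication genes Mcm5 and Mcm6 (horizontal) in each of the 3 ZT 4 libraries (circles) and 3 ZT 16 libraries (triangles, with replicate 1 open). Replicate 1 is the highest library in each of the 11 genes, while for Acss2 and Gpam the other ZT 16 libraries lie at 93.7 to 145 CPM, near the ZT 4 libraries.

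Of the heat shock and cold-inducible genes, 6 of 21 tested rose at ZT 16 and 0 fell. These chaperone genes are known to rise with body temperature, which peaks at night in mice, and the list also holds genes known to rise in the cold. Log2 fold changes ran from -0.27 to 1.55 over the list with a median of 0.61, and 0.592% of all genes were called higher. Hspa8, the constitutive HSP70 gene, was at 2323, 2377, and 2349 CPM at ZT 16 and 1198, 1164, and 1196 CPM at ZT 4, 1.98-fold higher (SE 0.14 on the log2 scale, adjusted p = 0.019). Hsp90aa1, the inducible HSP90 gene, was at 581, 634, and 598 CPM against 314, 299, and 330.2 CPM (1.92-fold, adjusted p = 0.019). The 3 libraries of each time point lay close together in both genes.

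Hspa1b, an inducible HSP70 gene, was at 30.7, 24.1, and 30.2 CPM against 8.13, 11, and 10.3 CPM (2.89-fold, adjusted p = 0.0082). Its near-identical copy Hspa1a had too few counts to be tested, and reads of the 2 copies may have been split. Hsph1, an HSP110 gene, was at 174, 196, and 164 CPM against 90.3, 85.3, and 86.2 CPM (2.04-fold, 0.012), Dnajb1, an HSP40 gene, at 46.3, 46.4, and 42.8 CPM against 23.5, 25.3, and 21.3 CPM (1.93-fold, 0.016), and Chordc1, an HSP90 cochaperone gene, at 94.2, 88.7, and 86.1 CPM against 57.3, 49.5, and 58.4 CPM (1.63-fold, 0.036). In 18 of the 21 genes the ZT 16 values lay above all ZT 4 values, and in 2 they lay below, where 9.54% and 11.2% of all genes tested did so. The 2 lower genes were Hspa4, at 153, 152, and 141 CPM against 167, 161, and 179 CPM (adjusted p = 0.56), and Cirbp, a cold-inducible RNA-binding protein gene, at 13, 10.6, and 14.4 CPM against 15, 16, and 15.1 CPM (0.50), and neither passed the test. Rbm3, which is also cold-inducible, was at 34.8, 35.6, and 39.9 CPM against 26.2, 22.5, and 23.5 CPM (0.067) and lay on the opposite side from Cirbp.

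The call of Hspa1b held in each fit without 1 library, and 1 to 6 genes of the list were called in these fits. The call was lost for Hspa8 without ZT 16 replicate 2 (adjusted p = 0.061), ZT 16 replicate 3 (adjusted p = 0.056), ZT 4 replicate 2 (adjusted p = 0.078) or ZT 4 replicate 3 (adjusted p = 0.10), for Hsp90aa1 without ZT 16 replicate 2 (adjusted p = 0.061), ZT 4 replicate 1 (adjusted p = 0.060), ZT 4 replicate 2 (adjusted p = 0.084) or ZT 4 replicate 3 (adjusted p = 0.088), for Hsph1 without ZT 4 replicate 2 (adjusted p = 0.058) or ZT 4 replicate 3 (adjusted p = 0.072), for Dnajb1 without ZT 16 replicate 2 (adjusted p = 0.051) or ZT 4 replicate 3 (adjusted p = 0.088), and for Chordc1 in each of the 6 fits (adjusted p = 0.072 to 0.16). Without both ZT 16 libraries low in Xist, 2 of the list were called (Hspa1b and Hsph1), and the calls of the following genes were lost, with adjusted p in parentheses: Hspa8 (0.11), Hsp90aa1 (0.10), Dnajb1 (0.067), and Chordc1 (0.12). In the fit of all 15 HFD libraries Hsp90aa1 (0.62) and Hsph1 (0.060) were not called. Of the 22 listed genes, 17 had a promoter window, and the heat shock element GAANNTTCNNGAA was found for 4 of them (Hspd1, Hspe1, Hsph1, and Chordc1), where 0.603% of all windows held it. The windows of Hspd1 and Hspe1 overlap. Hsph1 and Chordc1 are shown as the 2 of the 4 that were called, with capitals for the element, read on either strand and with overlaps. Hsph1 lies at chr5:149636287-149636316 (minus strand) and Chordc1 at chr9:18292259-18292288 (plus strand). The Hsph1 element lies within the transcribed bases, from base 37 after the start of the window shown. The Chordc1 matches begin at -4, 2, and 7 from the start and so lie at or after it.
Hsph1: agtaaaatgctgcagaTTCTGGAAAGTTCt
Chordc1: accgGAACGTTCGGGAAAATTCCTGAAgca

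In the lists of amino acid, glucose, bile acid, and drug metabolism 1 to 3 genes each were called, where 1.22% of all genes were. Of 32 genes of amino acid catabolism and the urea cycle, 2 were lower and 1 higher, with a median of -0.03. Agxt, which detoxifies glyoxylate, was at 187, 166, and 172 CPM at ZT 16 and 492, 594, and 428 CPM at ZT 4 (2.89-fold lower, adjusted p = 0.0076). Cbs, of the transsulfuration of homocysteine, was at 351, 344, and 324 CPM against 665, 914, and 646 CPM (2.18-fold lower, 0.021). Asl, a urea cycle enzyme, was at 884, 1119, and 1015 CPM against 524, 463, and 369 CPM and higher at ZT 16 (2.22-fold, 0.022). The values of these 3 genes did not overlap between the time points.

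Of 18 genes of glucose and glycogen metabolism, 15 had a log2 fold change above 0 (median 0.54) and 1 was called. Gbe1, the glycogen branching enzyme, was at 171, 138, and 127 CPM against 82, 82.1, and 86.2 CPM (1.74-fold, adjusted p = 0.039). Ppp1r3b, which targets a phosphatase to glycogen, was at 696, 608, and 543 CPM against 291, 379, and 218 CPM (0.053), and Gys2, the liver glycogen synthase, at 197, 183, and 184 CPM against 111, 111, and 142 CPM (0.084). Neither passed the threshold. Their groups were apart, which held for 20.7% of all genes tested. Of 17 genes of bile acid synthesis and transport, Abcb11, the bile salt export pump, was called, at 484, 619, and 501 CPM against 933, 997, and 894 CPM (1.76-fold lower, 0.045), and the median was -0.10. Cyp7a1, the rate-limiting enzyme of bile acid synthesis, was at 158, 202, and 74.3 CPM against 256, 27.7, and 48 CPM (0.85), and these overlapped.

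Of 35 genes of xenobiotic metabolism, 2 were higher (median 0.18). Gsta3, a glutathione transferase, was at 1852, 2026, and 1939 CPM against 881, 1095, and 976 CPM (1.97-fold, adjusted p = 0.023), and Cyp2a5, a cytochrome P450 with near paralogs, at 768, 938, and 420.0 CPM against 212, 302, and 212 CPM (2.93-fold, 0.039). In the second pair Cyp2a5 went the other way, with 366, 292, and 179 CPM at ZT 20 and 746, 1056, and 955 CPM at ZT 8 (log2 fold change -1.71, adjusted p = 0.0061), and the difference between the pairs was 3.27 (adjusted p = 0.0023). Of 30 genes of the endoplasmic reticulum, Dnajb9, a cochaperone of BiP, was called at 83.9, 54.1, and 96.8 CPM against 28.4, 34.6, and 31.7 CPM (2.48-fold, 0.023). Of 20 acute phase and hepatokine genes, Hamp, the iron hormone hepcidin, was called at 773, 1125, and 739.6 CPM against 299, 364, and 449.7 CPM (2.37-fold, 0.036). Each of these 4 genes was higher at ZT 16 without overlap. Of all genes tested, 0.592% were called higher and 9.54% lay higher without overlap. The call of Agxt held in each fit without 1 library, and the others were lost, for Cbs without ZT 16 replicate 2 (adjusted p = 0.063), ZT 16 replicate 3 (adjusted p = 0.067), ZT 4 replicate 2 (adjusted p = 0.065) or ZT 4 replicate 3 (adjusted p = 0.056), for Asl without ZT 16 replicate 2 (adjusted p = 0.063), ZT 16 replicate 3 (adjusted p = 0.059), ZT 4 replicate 2 (adjusted p = 0.095) or ZT 4 replicate 3 (adjusted p = 0.10), for Gbe1 in each of the 6 fits (adjusted p = 0.055 to 0.16), for Abcb11 in each of the 6 fits (adjusted p = 0.062 to 0.17), for Gsta3 in each fit but the one without ZT 16 replicate 1 (adjusted p = 0.063 to 0.13), for Cyp2a5 in each fit but the one without ZT 16 replicate 3 (adjusted p = 0.066 to 0.16), for Dnajb9 without ZT 16 replicate 3 (adjusted p = 0.057), ZT 4 replicate 1 (adjusted p = 0.086), ZT 4 replicate 2 (adjusted p = 0.084) or ZT 4 replicate 3 (adjusted p = 0.10), and for Hamp in each fit but the one without ZT 16 replicate 1 (adjusted p = 0.053 to 0.15). Without both ZT 16 libraries low in Xist, the calls of the following genes were lost, with adjusted p in parentheses: Agxt (0.058), Cbs (0.15), Asl (0.14), Abcb11 (0.13), Gsta3 (0.14), and Hamp (0.12).

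No gene was called by edgeR in the lists of sterol synthesis, fat oxidation and PPAR alpha targets, insulin and FoxO response, ribosome biogenesis, cytosolic ribosomal proteins, glucocorticoid response, immediate early response, cell cycle, and autophagy. Sterol synthesis had 25 genes tested with a median of 0.24, 3 higher and 2 lower at an unadjusted p under 0.05, and 1 called by DESeq2. Fat oxidation had 30 genes with a median of -0.01, 3 higher and 3 lower at the unadjusted p, and 1 by DESeq2. Insulin and FoxO response had 17 genes with a median of -0.01, 3 lower, and 1 by DESeq2. The median was thus near that of all genes in the lists of fat oxidation and of insulin and FoxO response. Of 73 ribosomal protein genes, 68 had a log2 fold change above 0, with a median of 0.18, 1 at an unadjusted p under 0.05, and 0 by DESeq2. Ribosome biogenesis had 27 of 34 genes above 0, a median of 0.22, 5 higher and 1 lower at the unadjusted p, and 1 by DESeq2. The counts at an unadjusted p under 0.05 were 3 higher and 2 lower of 13 glucocorticoid genes, 4 higher and 1 lower of 15 immediate early genes, 6 higher of 28 cell cycle genes, and 3 lower of 19 autophagy genes. DESeq2 called 1 higher and 1 lower, 0, 1, and 1 of these. With replicate 1 as the lone ZT 16 library, the median was 0.92 for the cell cycle, 0.42 for sterol synthesis, and 0.01 for fat oxidation. Without replicate 1 no gene of the 9 lists was called by edgeR. The median then turned from 0.24 to -0.05 for sterol synthesis and from 0.14 to -0.28 for the cell cycle. Other fits without 1 library gave calls, with 1 fat oxidation gene higher without ZT 16 replicate 3. In the fit without ZT 16 replicate 2, 1 glucocorticoid gene was lower. At most 1 gene was lower in the lists of fat oxidation and of insulin and FoxO response in any fit without 1 library.

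**Figure D5:**
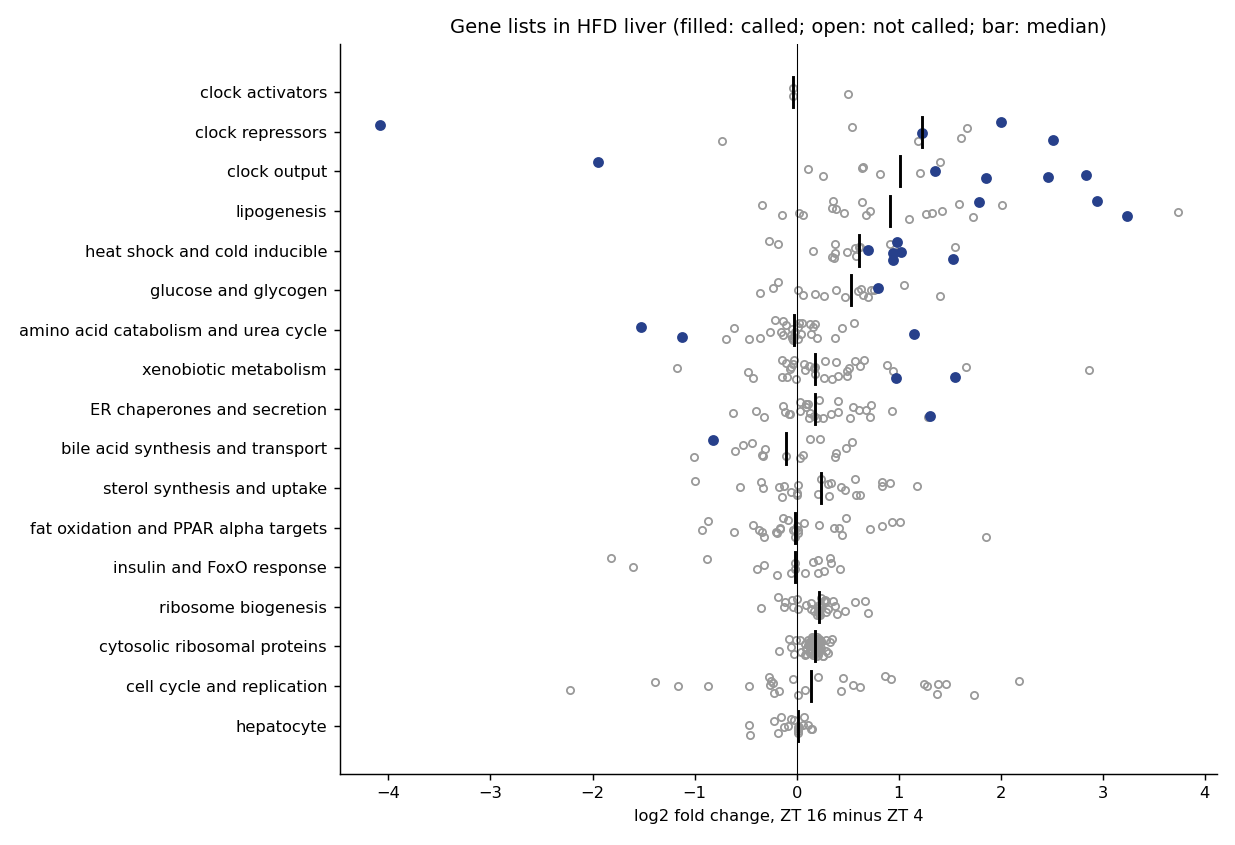
Log2 fold change, ZT 16 minus ZT 4 (horizontal axis), of each gene tested in 17 lists (vertical axis), with filled points for genes called, open points for genes not called, and a bar at the median of each list. The medians are 1.23 for clock repressors, 1.01 for clock output, 0.91 for lipogenesis, and 0.61 for the heat shock list, against 0.01 for the hepatocyte markers.

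Cell type markers were summed in each library. The hepatocyte markers summed to 131024 to 143148 CPM at ZT 16 and 127271 to 142329 CPM at ZT 4. Of the 19 tested, 0 were called by edgeR, 1 had an unadjusted p under 0.05, and 0 were called by DESeq2. Kupffer cell markers summed to 378 to 658 CPM and 427 to 745 CPM, and sinusoidal endothelial markers to 302 to 409 CPM and 272 to 368 CPM. Stellate cell and fibroblast markers summed to 325 to 403 CPM at ZT 16 and 257 to 336 CPM at ZT 4. In each of these lists the ranges overlapped. Ranges were apart for erythroid markers, with 107 to 122 CPM at ZT 16 and 133 to 170 CPM at ZT 4, and for pancreatic markers, with 18.1 to 28.6 CPM and 43.0 to 73.8 CPM. Neutrophil markers were near 0 in all 6 libraries, at 0.495 to 1.97 CPM in sum. The part of blood and pancreas RNA in the genes lower at ZT 16 was not tested.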

How the data were processed

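Read counts of 54532 genes were deposited as 1 table in the unit count, which the authors had not normalized. The submitters' processing notes name fastp, STAR, HTSeq 0.6.1, DESeq, and STAR-Fusion, and the build mm10, without their role, and strand was not marked by the library kit. Diet and time point were taken from the sample records, and replicates were numbered in accession order, so numbers pair no mice. Every pair of replicates differed by more than sampling noise (chi-square per degree of freedom, 29.2 or more). At 14592481 to 19815356 counts per library, 3 counts (the floor for a fold) correspond to 0.151 to 0.206 CPM, which covers counting error only.

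The software was DESeq2 1.42.0, edgeR 4.0.16, and limma 3.58.1 under R 4.3.3. ZT 16 and ZT 4 were compared with the two-sided quasi-likelihood F-test of edgeR on the counts as deposited, with TMM scaling, a filter that kept genes averaging 25 counts or more in the libraries fitted, and a Benjamini-Hochberg adjusted p under 0.05 over all genes tested. These genes held 99.7% of all counts. ZT 20 against ZT 8 and the difference between the 2 pairs were tested in the same way. All adjusted p-values are from edgeR unless DESeq2 is named. CPM were scaled over the 15 HFD libraries of ZT 0, 4, 8, 16, and 20, and HFD ZT 12 and ZT 24 were not used here. Errors are SD over 3 mice or SE of a log2 fold change from the fit.

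Named genes were the 12 of largest change in each direction among genes called without overlapping CPM and with a group mean of at least 5 CPM (14 calls were left out by this level or by their form of name), the clock lists, members of other lists, and the 5 genes of smallest p for the difference between the pairs. The result of 1 gene is not reported here, and it was left out of the list counts. Thra, Sphk2, Pklr, Hectd2, and Xist were named after their values had been seen. The members and lists, written by hand from general knowledge, were chosen with earlier results of these data known. Alternatives were DESeq2, other scaling, other gene filters, a fit of 15 libraries, and leaving out each library, and leaving out both ZT 16 libraries low in Xist was added after seeing the data. The tests were checked on simulated data.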

Additional observations from a re-analysis of the deposited data

Results flagged for a closer look

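For 24 named genes the change from ZT 4 to ZT 16 differed from the change from ZT 8 to ZT 20. This was tested by the difference of the 2 log2 fold changes over 12 libraries with edgeR (adjusted p under 0.05). Over all genes the difference was called in 86 of 12016 (0.716%). Arntl, Loxl4, Clpx, and Coq10b were among the 5 genes of smallest p in this same test, by which genes were named. The count of 24 is thus a description. Differences above 0, which mean a more positive change in the first pair, were 5.49 for Ciart, 4.25 for Usp2, 3.93 for Wee1, 3.82 for Per3, 3.45 for Thrsp, 3.27 for Cyp2a5, 2.98 for Nr1d2, 2.95 for Dbp, 2.69 for Coq10b, 2.28 for Per1, 2.08 for Tef, 1.91 for Gys2, 1.80 for Akr1c19, 1.77 for Nampt, 1.70 for Nmrk1, 1.57 for Bhlhe40, 1.31 for Tspan4, and 1.24 for Rbm3. Differences below 0 were -5.59 for Loxl4, -3.82 for Arntl, -3.51 for Ndrg1, -2.54 for Clpx, -1.44 for Crot, and -1.16 for Leo1. In the 12 fits without 1 library, the call of the difference was lost in 5 for Akr1c19 (adjusted p = 0.065 to 0.088, without ZT 20 replicates 2 or 3, ZT 16 replicate 2 or ZT 4 replicates 1 or 3) and in 9 for Crot (0.053 to 0.11, all but those without ZT 20 replicate 1, ZT 8 replicate 2, and ZT 4 replicate 2). For Npas2 the fitted value was -11.35, which is no size and no test, since Npas2 had at most 1 count in each ZT 8 library and passed the count filter through ZT 20 alone.

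Thrsp was at 605, 363, and 355 CPM at ZT 20 and 680.1, 241, and 614 CPM at ZT 8, so the first pair alone separated this lipogenic gene (log2 fold change 3.24 and -0.20, adjusted p of the difference = 0.012). Ndrg1 was at 12.9, 22.1, and 20.1 CPM at ZT 20 and 6.12, 11.6, and 5.94 CPM at ZT 8, with log2 fold changes of -2.29 and 1.23 (adjusted p = 0.0014). Gys2, at 131, 105, and 107 CPM at ZT 20 and 252, 300.3, and 279 CPM at ZT 8, was called lower at ZT 20 (log2 fold change -1.27, adjusted p = 0.0028) and was not called in the first pair.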

How the results depend on the processing

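The alternatives were DESeq2, other scaling, other filters, the 15-library fit, and each fit without 1 library. All 146 genes called between ZT 16 and ZT 4 kept their sign wherever they passed the count filter, and no call reversed. For the fits without 1 library this was set beforehand, since the CPM of these genes did not overlap between the time points. Among genes that were not called, the sign of the log2 fold change depended on 1 library for Clock (-0.20 to 0.13 without 1 library), Rora (-0.13 to 0.0495), Dgat2 (-0.0239 to 0.17), and Cyp7a1 (-0.0736 to 1.93). Per1, Ppp1r3b, and Pklr, just outside the threshold, were called by DESeq2 and in the 15-library fit. The count of calls moved from 146 (71 higher, 75 lower) to 533 with DESeq2 (271 and 262), which called all 146, to 873 without a count filter (424 and 449), and to 223 in 1 fit of 15 libraries (108 and 115), which called 127 of the 146. It was 33 to 103 when 1 library was left out (21 to 63 higher, 12 to 40 lower), and 21 genes were called in each of those 6 fits. Without both ZT 16 libraries low in Xist, 23 genes were lower, with 1 ZT 16 library assumed to vary like the ZT 4 group. For the difference between the 2 pairs, 86 calls (33 and 53) became 242 with DESeq2 (103 and 139), 487 without a count filter (236 and 251), and 49 to 122 without 1 library (20 to 49 and 29 to 73). ZT 20 against ZT 8 had 335 calls with edgeR and 648 with DESeq2. The cause of these moves was not tested. The fits without 1 library have fewer samples and also differ in the mouse left out. In the 15-library fit Hsp90aa1 (0.62), Tsku (0.069), Hsph1 (0.060), Usp18 (0.054), and Tap1 (0.090) were not called (adjusted p in parentheses). No paired analysis was possible because the labels carry no replicate numbers. Some sample titles of different time points begin with the same number (ZT 4 replicate 3 and ZT 8 replicate 3, ZT 16 replicate 2 and ZT 20 replicate 2), but the sources used here do not say what it marks, and no such number is shared by ZT 16 and ZT 4. With 3 mice per group, small changes and low counts limit the calls, and the median log2 size of 1.16 among them describes the changes that this depth and spread could show.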

Other observations

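Of the genes induced by interferon, 11 of 48 fell at ZT 16. The list of 48 genes was written with the values already in view, so the list gets no test, and its counts are a description. Of the 48, 43 had a log2 fold change below 0 and the 11 called were all lower, where 0.625% of all genes tested were called lower. The median was -0.67. In 30 of the 48 genes the ZT 16 values lay below all ZT 4 values, which held for 11.2% of all genes tested. Ifit1, an antiviral RNA-binding protein gene, was at 23.5, 20.4, and 23.9 CPM at ZT 16 and 38.9, 79, and 71.8 CPM at ZT 4 (adjusted p = 0.028), and Usp18, which restrains interferon signalling, at 11.6, 15.8, and 16.5 CPM against 28.6, 29.2, and 29.3 CPM (0.028). Lgals9, the galectin 9 gene, was at 267, 224, and 249.9 CPM against 467, 505, and 445 CPM (0.021), and Tap1, a peptide transporter of antigen presentation, at 25.9, 24, and 27.7 CPM against 40.8, 40.5, and 45.1 CPM (0.039). Each of these 4 genes was separated between the time points. Leaving out 1 library gave 0 to 6 calls in the list, and 2 were called without both libraries low in Xist, where the calls of Ifit1 (0.16), Lgals9 (0.16), and Tap1 (0.18) were lost (adjusted p in parentheses). Usp18 (0.054) and Tap1 (0.090) were not called in the fit of all 15 HFD libraries. Kupffer cell markers summed to 378 to 658 CPM at ZT 16 and 427 to 745 CPM at ZT 4. The call was lost for Ifit1 in each fit but the one without ZT 4 replicate 1 (adjusted p = 0.052 to 0.10), for Usp18 in each fit but the one without ZT 16 replicate 3 (adjusted p = 0.052 to 0.11), for Lgals9 in each fit but the one without ZT 16 replicate 1 (adjusted p = 0.061 to 0.087), and for Tap1 in each of the 6 fits (adjusted p = 0.075 to 0.18).

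A few further genes, also chosen after their values were seen, kept their call in each fit without 1 library. Nmrk1, a nicotinamide riboside kinase gene of NAD synthesis, was at 57.9, 62, and 63.5 CPM at ZT 16 and 27, 17.6, and 19 CPM at ZT 4 (2.88-fold, adjusted p = 0.0082). Ces1d, a carboxylesterase gene with near paralogs, was at 1743, 1735, and 1091 CPM against 458, 417, and 310.0 CPM (3.86-fold, 0.0086). Akr1c19, an aldo-keto reductase gene with near paralogs, was at 78.6, 102, and 65.1 CPM against 24.3, 30.8, and 21.6 CPM (3.2-fold, 0.0086). Crot, the peroxisomal carnitine octanoyltransferase gene, was at 377, 419.8, and 437 CPM against 1059, 875, and 1210.0 CPM (2.55-fold lower, 0.010). None of the 4 had overlapping groups, and the call of Crot was lost without both libraries low in Xist (adjusted p = 0.063).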
